A study of Caenorhabditis elegans with 2 samples.

Results

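The genes of the translation machinery described here are 42 translation factors and 32 aminoacyl-tRNA synthetases, 74 of the 19973 nuclear protein-coding genes of C. elegans in Ensembl WBcel235. They were taken by name alone. Factors are the genes whose names start with eef-, eif-, iff- or ife-, with inf-1, ifg-1, tct-1 and rack-1, and synthetases are the genes named by one letter followed by ars and a number. Sites of MEF-2, a MADS-box transcription factor of the MEF2 kind, had been mapped by chromatin immunoprecipitation and sequencing (ChIP-seq) in whole worms at the earliest larval stage, L1. The worms were of strain OP301, of mixed sex, which carries the mutation unc-119(tm4063) and the integrated transgene wgIs301, the source of the eGFP-tagged MEF-2. There was 1 group of 2 biological replicates, with no other strain, stage or treatment to set against it. The labels record the antibody under the name mef-2, while the experiment is described as directed at eGFP-mef-2. In whole larvae, a site bound in few cells and one bound weakly in many cannot be told apart. Read counts and the control library were not analysed here, so library depth is unknown.

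Translation starts when eIF4E binds the cap of an mRNA and, with the scaffold eIF4G and the helicase eIF4A, recruits the small ribosomal subunit, on which eIF3 is assembled and to which eIF2 brings the initiator tRNA. eIF2B reloads eIF2 with GTP. In elongation, eEF1A delivers each charged tRNA, eEF1B reloads eEF1A with GTP, eEF2 moves the ribosome along, and eIF5A helps it through sequences that are slow to form peptide bonds. The synthetases join each amino acid to its tRNA. In the naming used for worm synthetases, the suffix 1 mostly marks the cytosolic enzyme and 2 the mitochondrial one.

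A site is the point source of a listed peak, and it was given to a gene when it fell no more than 1000 bp before, or 200 bp after, the gene's outermost annotated 5' end. On ce11, the build that WBcel235 is, 4 lists were read. The relaxed lists, in which background is kept along with peaks, had 30000 intervals in replicate 1, 16385 in replicate 2 and 28182 in the pooled replicates. The thresholded list had 832. All 832 are the strongest pooled entries, from a signal value of 27.4 upward, so the thresholded and pooled values of a site are the same number. The signal value is the authors' own score of each peak. Its scale is not stated, and here it orders peaks within a list only.

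Sites at 5 genes are shown as sequence because they cover the range found: iff-2, the strongest factor site, the near-identical copies of eEF1A, eef-1A.1 and eef-1A.2, a subunit of eIF3 with the weakest thresholded site, and ears-2, the only synthetase with a thresholded site. Each is the 201 bases around the point source, which is base 101, from the RefSeq sequence of ce11, 5' to 3' on the strand of the gene. Capitals mark CGCAAA or its reverse complement TTTGCG, described with the other motifs.
iff-2, chrII:8561336-8561536, reverse strand: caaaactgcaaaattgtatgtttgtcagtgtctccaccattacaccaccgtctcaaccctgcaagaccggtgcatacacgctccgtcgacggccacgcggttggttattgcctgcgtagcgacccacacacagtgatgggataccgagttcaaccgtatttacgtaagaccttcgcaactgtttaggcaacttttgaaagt
eef-1A.1, chrIII:6971980-6972180, reverse strand: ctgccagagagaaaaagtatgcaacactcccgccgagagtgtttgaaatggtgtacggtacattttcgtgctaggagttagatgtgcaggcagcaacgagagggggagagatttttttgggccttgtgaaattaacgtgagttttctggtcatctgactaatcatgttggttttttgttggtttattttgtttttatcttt
eef-1A.2, chrX:7823204-7823404, forward strand: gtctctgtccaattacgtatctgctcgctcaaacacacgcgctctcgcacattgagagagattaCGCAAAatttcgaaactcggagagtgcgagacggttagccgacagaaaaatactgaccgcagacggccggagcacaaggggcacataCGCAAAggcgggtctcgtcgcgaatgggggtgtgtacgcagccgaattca
eif-3.B, chrII:14795032-14795232, forward strand: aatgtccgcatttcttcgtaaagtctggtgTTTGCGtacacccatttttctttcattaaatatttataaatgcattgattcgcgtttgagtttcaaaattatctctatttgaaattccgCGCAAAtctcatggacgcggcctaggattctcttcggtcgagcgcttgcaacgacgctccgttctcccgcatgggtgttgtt
ears-2, chrIV:390387-390587, reverse strand: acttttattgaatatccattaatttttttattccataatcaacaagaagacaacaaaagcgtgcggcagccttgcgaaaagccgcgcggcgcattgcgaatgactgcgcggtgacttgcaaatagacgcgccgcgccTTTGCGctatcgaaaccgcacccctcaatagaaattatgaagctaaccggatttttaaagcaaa

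Of the factors, 9 of 42 had a thresholded site (21.4%, 95% Wilson interval 11.7 to 35.9), beside 2.93% of all nuclear protein-coding genes. Of the synthetases, 1 of 32 did (3.12%, interval 0.554 to 15.7), a share near that 2.93%. In the pooled relaxed list the counts were 28 factors (66.7%) and 17 synthetases (53.1%), beside 38.5% of all genes. Replicate 1 listed a site at 27 factors (64.3%) and 16 synthetases (50%), beside 39.6%, and replicate 2 at 26 factors (61.9%) and 10 synthetases (31.2%), beside 25.3%. Both replicate lists held a site at 21 factors (50%, interval 35.5 to 64.5) and at 6 synthetases (18.8%, interval 8.89 to 35.3), beside 16.1% of all genes. At least 1 of the 4 lists held a site at 32 factors and 20 synthetases, beside 51.7% of all genes. The factors thus stood above the share of all genes in every one of these lists. The synthetases stood near it in the thresholded list and in both replicates together. They were above it in the relaxed lists taken singly, each time with the share of all genes inside their interval (36.5 to 69.1 in the pooled list, 33.6 to 66.4 in replicate 1 and 17.9 to 48.6 in replicate 2). The intervals cover counting error over genes, which are not replicates, and no test of the difference was made.

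**Figure D1:**
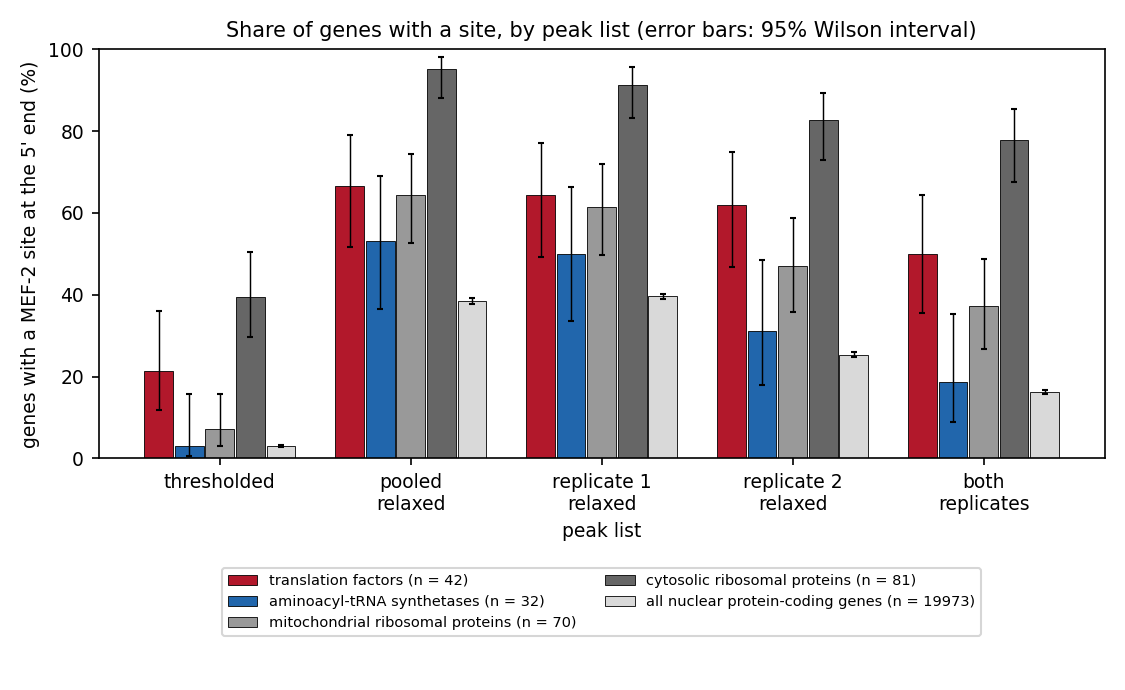
Share of genes with a MEF-2 site at the 5' end (y axis, %) in each peak list (x axis), for factors, synthetases, both classes of ribosomal protein and all nuclear protein-coding genes; error bars are 95% Wilson intervals. Factors stand at 21.4% in the thresholded list and synthetases at 3.12%, where all genes stand at 2.93%.

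The elongation factors carried the most complete set of sites. All 6 had a site in the pooled list and in both replicates, beside 38.5% and 16.1% of all genes. Of the 6, 5 passed the threshold, beside 2.93% of all genes. At eef-1A.2 the signal value was 62.8 in replicate 1 (rank 47), 19.3 in replicate 2 (rank 115) and 84.9 in the pooled data (rank 42), at 350 bp upstream of the 5' end. At eef-1A.1 it was 27.5 in replicate 1 (rank 395), 11.1 in replicate 2 (rank 494) and 41.4 in the pooled data, at 368 bp upstream. The eef-1A.2 site was the stronger of the pair in every list, and the longest run of bases shared by their 201-base windows was 8. eef-2, the translocation factor, had 32.8 in replicate 1 (rank 251), 9.28 in replicate 2 (rank 743) and 42.4 in the pooled data, 5 bp from its 5' end (chromosome I, 9163356 to 9163695).

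Of the genes for eEF1B, 2 passed the threshold. The site of eef-1B.1 had 22.6 in replicate 1 (rank 634), 10.3 in replicate 2 (rank 585) and 32.5 in the pooled data, 25 bp upstream (chromosome III, 7973241 to 7973580). That of eef-1G, the gamma subunit, had 17.0 in replicate 1 (rank 1265), 20.9 in replicate 2 (rank 82) and 36.3 in the pooled data, 95 bp upstream (chromosome V, 10965454 to 10965793). It was among the 832 strongest of replicate 2 and not of replicate 1. The remaining gene, eef-1B.2, had 9.26 in replicate 1 (rank 6606), 9.45 in replicate 2 (rank 713) and 19.3 in the pooled data, under the threshold.

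The highest value of any factor was at iff-2, one of the 2 worm genes for eIF5A and the one known for its role in somatic cells. It had 70.2 in replicate 1 (rank 38), 36.4 in replicate 2 (rank 9) and 106 in the pooled data (rank 22), at 69 bp upstream of the 5' end (chromosome II, 8561266 to 8561605). Its paralog iff-1, known for its role in the germline, had a site in none of the 4 lists. The genes for eIF4E were also unlike each other. ife-2 passed the threshold, with 27.6 in replicate 1 (rank 389), 6.40 in replicate 2 (rank 1561) and 35.7 in the pooled data, 162 bp upstream (chromosome X, 382701 to 383040). ife-4 had 19.5 in the pooled data, 9.28 in replicate 1 and 7.74 in replicate 2. ife-3 had 9.12 in the pooled data and 2.75 in replicate 2 with no interval in replicate 1, ife-5 had 5.20 in replicate 1 alone, and ife-1 had none. Of these genes, ife-2 and ife-4 are known as somatic forms, and ife-1, ife-3 and ife-5 as forms of the germline.

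Of the 11 subunits of eIF3, 8 had a pooled site, 6 had a site in both replicates, and 2 passed the threshold. The shares of all genes were 38.5%, 16.1% and 2.93%. eif-3.C had 21.6 in replicate 1 (rank 706), 17.4 in replicate 2 (rank 154) and 37.2 in the pooled data, 251 bp upstream (chromosome I, 9979743 to 9980082). eif-3.B had 24.4 in replicate 1 (rank 518), 8.43 in replicate 2 (rank 911) and 29.4 in the pooled data, 272 bp upstream (chromosome II, 14794962 to 14795301). It is the weakest of the members above the limit. Just under the limit, eif-3.H had 26.2 in the pooled data (rank 899), 15.9 in replicate 1 and 8.89 in replicate 2. eif-3.E had 22.0 in the pooled data and 17.8 in replicate 1, with no interval in replicate 2. eif-3.D, eif-3.K and eif-3.L had a site in no list, so the subunits of this 1 complex spread from the thresholded list to none.

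None of the other factors passed the threshold. Of the 9 further genes named eif-, for eIF1, eIF1A, eIF2, eIF2A, eIF2D, eIF4A3 and eIF6, 6 had a pooled site, beside 38.5% of all genes. The strongest was eif-1, which acts in start codon selection, with 22.8 in the pooled data (rank 1195), 8.95 in replicate 1 (rank 7309) and 12.6 in replicate 2 (rank 373). Among the genes for eIF2 itself, eif-2beta had 11.7 and eif-2gamma 8.05 in the pooled data, each with no interval in replicate 2, and eif-2alpha had a site in no list. Of the 5 genes for eIF2B, 3 had a pooled site, beside the same 38.5%, a count too small to set them apart from all genes. The strongest was at eif-2Bgamma with 21.2, 13.5 in replicate 1 and 9.37 in replicate 2. That site lay 930 bp upstream, in an intron of C15F1.5, and the 5' ends of sup-39 and mir-1831 were nearer to it. A second pooled site of eif-2Bgamma, with 13.3, lay 180 bp upstream. eIF4G (ifg-1) had 5.16 in replicate 1 and 4.25 in replicate 2 and no pooled interval, and eIF4A (inf-1) had 2.67 in replicate 2 alone. rack-1, a scaffold on the small subunit, had 18.1 in the pooled data, 15.8 in replicate 1 and 6.15 in replicate 2. The 10 factors with a site in no list were eif-2Balpha, eif-2D, eif-2alpha, eif-3.D, eif-3.K, eif-3.L, eif-6, ife-1, iff-1 and tct-1.

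**Figure D2:**
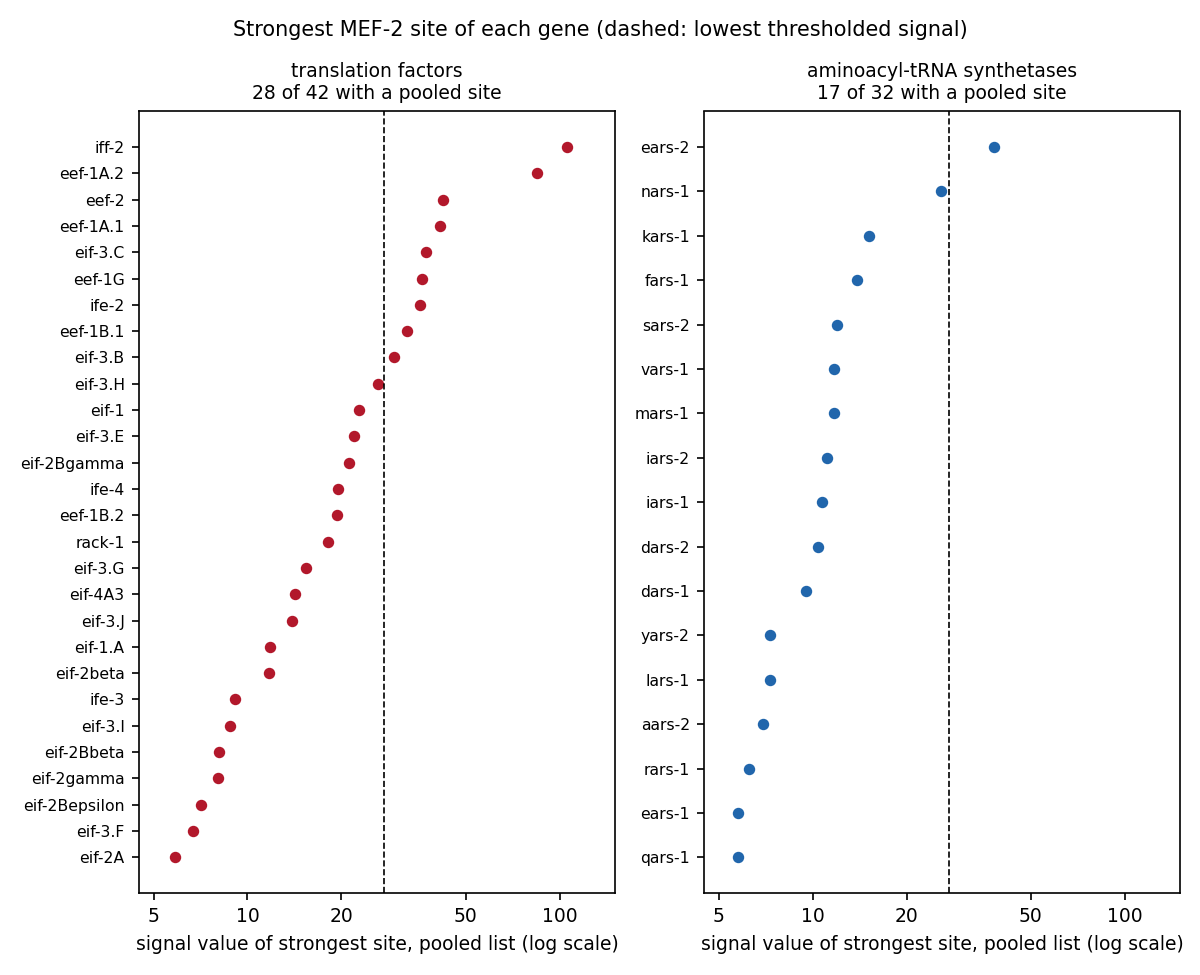
Signal value of the strongest pooled site of each gene (x axis, log scale) for the 28 factors and the 17 synthetases that have one, each row 1 gene; the dashed line is the lowest value in the thresholded list, 27.4. Of the synthetases, ears-2 (38.0) lies above the line and nars-1 (25.7) just under it, while 9 factors lie above it.

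Among the synthetases, ears-2, named for the enzyme that charges the tRNA for glutamate, had the highest pooled value. Its value was 20.9 in replicate 1 (rank 783), 14.1 in replicate 2 (rank 278) and 38.0 in the pooled data (rank 384), 19 bp upstream of its 5' end (chromosome IV, 390317 to 390656). The next, nars-1 for asparagine, had 22.5 in replicate 1 (rank 641), 5.44 in replicate 2 (rank 2185) and 25.7 in the pooled data (rank 938). It was among the 832 strongest of replicate 1 only. fars-1 for phenylalanine had 12.3 in replicate 1 (rank 2891), 12.3 in replicate 2 (rank 395) and 13.9 in the pooled data, and it was among the 832 strongest of replicate 2 only. Its strongest interval lay 575 bp upstream in replicate 1 and 872 bp upstream in replicate 2, and the ends of these intervals overlapped. A weaker interval of replicate 1, with a value of 5.36, lay 828 bp upstream, nearer to that of replicate 2.

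The other synthetases with high pooled values had no interval in replicate 2 or a low one. kars-1 (lysine) had 15.2 in the pooled data and 12.6 in replicate 1, sars-2 (serine) had 12.0 and 10.4, and mars-1 (methionine) had 11.7 and 10.5, all with no interval in replicate 2. vars-1 (valine) had 11.7 in the pooled data, 10.6 in replicate 1 and 3.76 in replicate 2. A site in replicate 1 and not in replicate 2 was found at 10 of the 32 synthetases (31.2%) and 6 of the 42 factors (14.3%), beside 23.4% of all genes. The reverse was found at 4 synthetases (12.5%) and 5 factors (11.9%), beside 9.18% of all genes. By suffix, 11 of the 20 genes ending in 1 had a pooled site, beside 38.5% of all genes, and none of them passed the threshold, beside 2.93%. Of the 11 ending in 2, 6 had a pooled site and 1 passed. Both replicate lists held a site at 5 of the 20 and at 1 of the 11, beside 16.1% of all genes. With so few genes these counts do not set the suffixes apart, and no test was made. The 12 synthetases in no list include cars-1, fars-2, fars-3, gars-1, hars-1, lars-2, pars-1, pars-2, rars-2 and sars-1.

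Where members had sites in both replicates, the order of strength was shared for some and not for others. In the 832 strongest intervals of replicate 1 there were 8 factors and 2 synthetases, beside 2.68% of all genes, and in those of replicate 2 there were 11 factors and 2 synthetases, beside 3.00%. iff-2 and eef-1A.2 had the lowest rank numbers of the 74 genes in replicate 1. In replicate 2, iff-2 came first, with eef-1G at rank 82 ahead of eef-1A.2. At the 10 genes with a thresholded site the replicates' point sources lay a median of 19 bp apart (range 5 to 64), and the intervals overlapped at all 10. Thresholded peaks had passed a limit on the irreproducible discovery rate, with the replicate lists as input. The choice of these sites thus favoured overlap, and the distance apart is not given here for the other thresholded sites. Over the genes with a site in both lists, the strongest intervals overlapped at 20 of 21 factors and at 4 of 6 synthetases. That count was not made over all genes. Counting any overlapping intervals gave 21 factors (50%) and 4 synthetases (12.5%), beside 13.2% of all genes, of which 16.1% had a site in both lists. The difference between factors and synthetases was not tested.

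**Figure D3:**
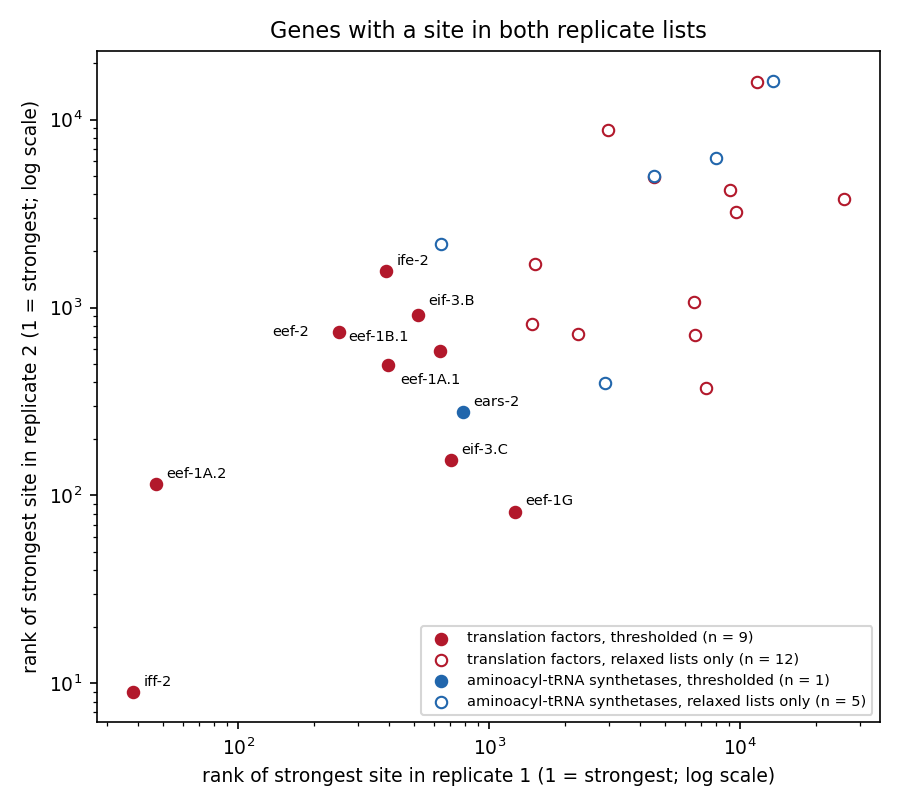
Rank of the strongest site in replicate 1 (x axis) and replicate 2 (y axis), both on log scales with 1 the strongest, for the 21 factors and 6 synthetases with a site in both lists; filled points are genes with a thresholded site. iff-2 (ranks 38 and 9) and eef-1A.2 (47 and 115) lie in the lower left corner, while eef-1G (1265 and 82) and ife-2 (389 and 1561) differ between the replicates.

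All 10 thresholded sites lay upstream of the 5' end and between protein-coding genes, from 5 to 368 bp away. Their median distance was 128.5 bp upstream, beside 252 bp over the 585 genes with a thresholded site (quartiles 144 and 453). This median rests on the choice of list. Over the members among the 832 strongest intervals of replicate 2 alone it was -232 bp (n = 13, negative upstream), and over those of replicate 1 alone -211.5 bp (n = 10), both closer to the median of all genes. For the cytosolic ribosomal proteins it was 306 bp over 32 genes. Sites at eef-2, ears-2, eef-1B.1, iff-2 and eef-1G lay within 100 bp of the 5' end. In the pooled list the medians were 316.5 bp for factors and 329 bp for synthetases, beside 295 bp for all genes.

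**Figure D4:**
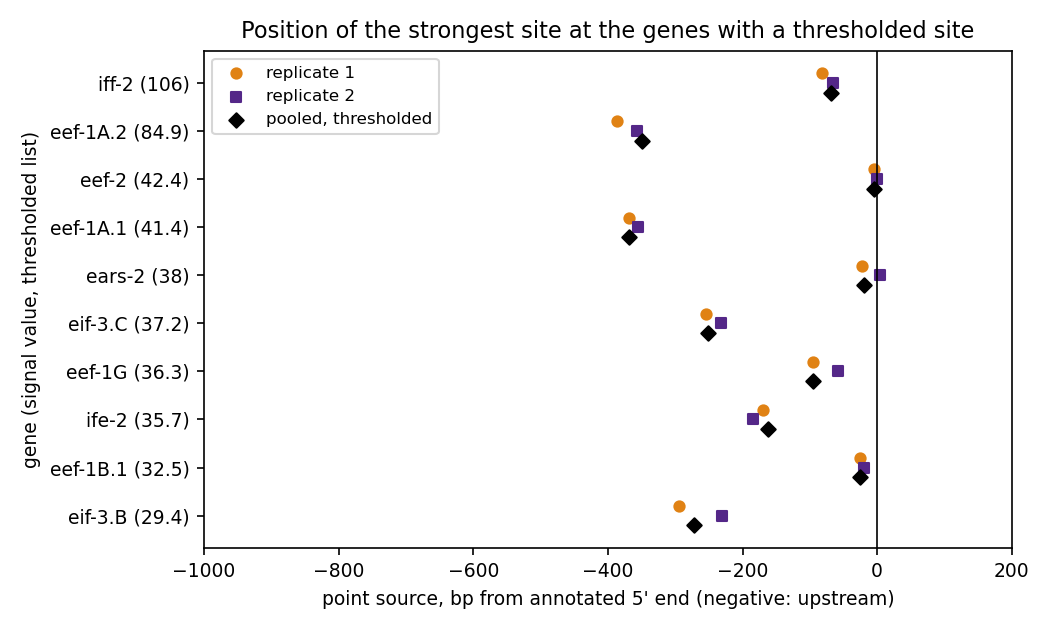
Position of the strongest site at the 10 genes with a thresholded site (rows, with the signal value), in bp from the annotated 5' end (x axis, negative upstream), in replicate 1, replicate 2 and the pooled data. Every pooled point source lies upstream, between 5 and 368 bp, and the replicates differ by at most 64 bp, at sites whose choice favoured such closeness.

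Several of these sites also lay before another gene, or in 1 case just past its 5' end. The point source of eef-1A.1 was 173 bp upstream of rfc-4, a subunit of the clamp loader of DNA replication that is transcribed the other way. It was also 5 bp downstream of the 5' end of the microRNA gene cel-mir-5549. The eef-1G site was 85 bp upstream of ctf-4, that of ears-2 was 73 bp upstream of uncp-18, that of eef-1B.1 was 306 bp upstream of aco-2, the mitochondrial aconitase, and that of eef-2 was 260 bp upstream of clsp-1. All 4 of these genes run the other way too. The iff-2 site also lay 664 bp upstream of the small nucleolar RNA gene F54C9.12 and 866 bp upstream of F54C9.14. With each site given only to the nearest protein-coding 5' end, 7 factors (16.7%) and 1 synthetase (3.12%) kept a thresholded site, beside 2.14% of all genes. The sites of eef-1A.1 and eef-1G went to rfc-4 and ctf-4. The sites of eef-1A.2, eif-3.B, eif-3.C and ife-2 lay in no other gene's window. Over the strongest pooled sites, the 5' end of another gene whose window also held the site was nearer at 9 of 28 factors and 6 of 17 synthetases. Genes whose 5' end lay more than 200 bp before the site were not counted, so these are lower bounds. The site lay inside a protein-coding gene at 5 of the 28 and 8 of the 17. At ears-1 and lars-1 that gene was the synthetase gene itself. Neither of these counts was made over all genes with a pooled site, so the contrast of factors with synthetases has no baseline here.

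Many worm genes stand close behind another gene on the same strand, as downstream genes of an operon do, and such genes are often transcribed from the promoter of the first. A gap under 500 bp to such a gene was found at 8 of 42 factors and 11 of 32 synthetases, beside 3615 of all 19973 genes. Of these 19, 1 had a thresholded site (eif-3.C, 400 bp behind sys-1), and 5 of the 8 factors and 5 of the 11 synthetases had a pooled site. A site in no list was the case for 7 of the 19, beside 1846 of the 3615 over all genes. Over all genes, 33.9% of those with such a gap had a pooled site and 39.5% of the others, and 1.74% and 3.19% a thresholded one. At 6 of the 7 in no list, the gene in front had a pooled site, beside 40.1% of the 1846 such pairs over all genes. For tct-1, 94 bp behind the ribosomal protein gene rla-0, the front gene had a value of 11.3. For eif-2alpha, 132 bp behind the prohibitin gene phb-1, it was 20.1. For gars-1, 131 bp behind T10F2.2, it was 22.3, with 21.6 in replicate 1 and no interval in replicate 2. The others were lars-2, rars-2 and yars-1, with 12.1, 12.5 and 8.51 at the front gene, while zyg-9 in front of fars-3 had none. The front gene of lars-2, ZK524.4, had 8.5 in replicate 2 and no interval in replicate 1. Of the 12 close genes with a site in some list, 5 had a pooled site at the front gene, beside 53.1% of 1769 such pairs. At rars-1 the site of the front gene, rpb-8, was the same interval as its own (6.25), so it counted on both sides. With so few members these shares carry little weight, and they were not tested. The count was made after the values had been seen.

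The MEF2 element, the A/T-rich sequence bound by the family, was found within 100 bp of none of the 10 point sources. The element was present at 3.69% of the 434 distinct thresholded sites at protein-coding 5' ends, and in 8.06% of windows of the same length centred 250 bp upstream of all 19973 genes. With shares this low, its absence from 10 sites says little about them. Searched on both strands, TATAAA was found at 2 of the 10 sites (eif-3.B and ife-2) beside 9.45% of the 434 and 24.4% of promoter windows, and GAGAGA at 2 (both eEF1A genes) beside 42.9% and 13.0%. TGCGTC was found at 1 (eif-3.C) beside 30.4% and 5.70%, and CACGTG and GGGCGG at none, beside 8.53% and 9.45% of the 434 sites and 3.11% and 4.21% of promoter windows. The G+C share of the windows had a median of 43.0% (39.3 to 54.2), beside 44.3% at the 434 sites and 33.8% in promoter windows, with eef-1A.2 the highest.

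Of all sequences of 6 bases, counted with their reverse complements, 3 were present at 7 of the 10 sites. CGCAAA was at 21.7% of the 434 sites and 9.99% of promoter windows, CAAACA at 26.0% and 18.5%, and AATTTC at 30.4% and 41.7%. CGCAAA was absent from the windows of iff-2, eef-1A.1 and eef-1B.1. It had 2 copies each at eef-1A.2 and eif-3.B, and the 6-base sequences were picked by these counts, so the counts are a description.

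Set beside the genes of the ribosome itself, factors had fewer sites than cytosolic ribosomal proteins in each list. Of 81 such genes, 32 had a thresholded site (39.5%, interval 29.6 to 50.4), 77 a pooled one (95.1%) and 63 a site in both replicates (77.8%). Of 70 mitochondrial ribosomal protein genes, 5 had a thresholded site (7.14%), 45 a pooled one (64.3%) and 26 a site in both replicates (37.1%). By strength, the strongest pooled sites had a median signal value of 19.4 at 28 factors and 10.7 at 17 synthetases, beside 21.3 at 77 cytosolic and 12.6 at 45 mitochondrial ribosomal protein genes and 9.12 at all genes with one. The intervals of the factors and the cytosolic ribosomal proteins overlap in the thresholded list, and the differences were not tested.

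Of 22 further genes of translation and its control that were listed, 18 matched a gene name. A thresholded site was found at 3 of the 18, beside 2.93% of all genes, and a pooled one at 16, beside 38.5%. ifet-1, a repressor that binds eIF4E, had 58.1 in replicate 1 (rank 55), 18.4 in replicate 2 (rank 134) and 76.5 in the pooled data (rank 52). larp-1, an RNA-binding protein of the La-related family, had 47.7 in replicate 1 (rank 97), 22.1 in replicate 2 (rank 64) and 72.9 in the pooled data (rank 65). Both pooled values are below those of iff-2 and eef-1A.2 and above those of the other factors. pab-1, the cytoplasmic poly(A)-binding protein, had 19.6 in replicate 1, 8.86 in replicate 2 and 28.0 in the pooled data, close to the limit, and pab-2 had 26.4 just under it. let-363, the TOR kinase, had 4.85 in replicate 1 alone.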

How the data were processed

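MEF-2 sites in L1 larvae were read from 4 peak lists on ce11, from 2 biological replicates that form 1 group. The deposited records name the alignments behind each relaxed list and a further file, shared by the replicates, that also enters the control-normalised signal. They name the pooled and replicate lists as the input of the thresholded one, whose peaks passed a limit on the irreproducible discovery rate. The aligner, caller, versions and that limit were not given in the sources used here. The deposited lists give a signal value per peak, the authors' own, with its scale not stated, and the position of the point source, per the file columns. No read counts were used, so depth and the precision it gives are unknown. The 4 lists on ce10 were not used.

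Genes came from Ensembl release 115 (WBcel235) and sequence from the RefSeq copy of the same assembly. No peak ran past a chromosome end. The members and lists were chosen with earlier results of these data known. Genes named are those with a thresholded site, the strongest 5 of each class without one, the 3 just under the limit, and up to 10 per class with no site; others named were chosen after their values were seen. Shares have 95% Wilson intervals, for counting error over genes. Counting was checked on simulated data with Python 3.11.15, NumPy 2.4.6 and SciPy 1.17.1. Alternatives were other windows, 5' ends, overlap rules, list sizes and single replicates. No test between groups was possible with 1 group.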

Additional observations from a re-analysis of the deposited data

How the results depend on the processing

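The counts of genes, the count of elements and the median distance were given 43 alternative values. Of these, 38 stayed within 1.5 times the reported count (for distance, within 1 SD over the sites). The factors stayed above the share of all genes in each. Synthetases in the thresholded list and in both replicates together, just above that share in the main counts, fell below it in some alternatives. In the thresholded list they stood at 3.12% beside 3.53% within 1500 bp before and 500 bp after the 5' end. The SD limit is wide: the median distance of -128.5 bp became -232 bp without replicate 1 and -211.5 bp without replicate 2, over 1.5 times farther. The count of 9 factors with a thresholded site was 4 among the 416 strongest (9.52%, beside 1.43% of all genes). Without one of the replicates, the 832 strongest intervals of the other stand in. The count was then 8 without replicate 2 (19%, beside 2.68%) and 11 without replicate 1 (26.2%, beside 3.00%). The 1 synthetase became 2 without either replicate, ears-2 with nars-1 in replicate 1 and with fars-1 in replicate 2. Within 500 bp before and 100 bp after the 5' end, 11 synthetases in place of 17 had a pooled site (34.4%, beside 26.0% of all genes), and with the nearest gene only, 3 in place of 6 had a site in both replicates (9.38%, beside 11.9%). Overlapping replicate intervals, added after the data had been seen, gave 21 factors (50%) and 4 synthetases (12.5%), beside 13.2% of all genes. No paired analysis was possible because the study has 1 group. Depth is unknown, the lists hold background, and a gene in no list may have a site below what they record.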
